A study of Mus musculus with 26 samples.

Results

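Th encodes tyrosine hydroxylase, and its signal was followed in BALB/c mice of both sexes across 5 exocrine glands. The member is the 1 probe annotated to Th (Entrez gene 21823, chromosome 7) among 10500 probes, of which 8983 carried 1 gene symbol. The gene was chosen by its measured levels across these glands, so every Th level and every Th difference below is a description and carries no test. The 26 arrays held RNA of 3 salivary glands (submandibular, sublingual, parotid) and of the lacrimal and meibomian glands, which serve the eye; no treatment and no age is given. Each array was 1 pool of the glands of 5 animals (10 glands), so the spread between arrays is that between pools. There were 3 pools per sex for the submandibular, lacrimal and meibomian glands, lettered A to C, and 2 per sex (A and B) for the sublingual and parotid glands.

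Tyrosine hydroxylase turns the amino acid tyrosine into L-DOPA, the rate-limiting step on the way to dopamine, noradrenaline and adrenaline. The enzyme needs tetrahydrobiopterin as a cofactor, and the DOPA decarboxylase Ddc acts next in the pathway. It is best known from sympathetic neurons, the adrenal medulla and dopamine neurons of the brain. Sympathetic fibres reach the salivary glands from cell bodies that lie outside the glands, in the superior cervical ganglion.

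The stretch upstream of the Th start is shown because it carries the cyclic AMP response element for which this promoter is known. It is taken from RefSeq (GRCm38.p6, chr7:142899996-142900245, minus strand) and holds the 250 bases before the annotated start, 5′ to 3′. Capitals mark the matches to the motifs TGACGTCA (CRE) and AP-1, spelled TGA, any base, then TCA.

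Th: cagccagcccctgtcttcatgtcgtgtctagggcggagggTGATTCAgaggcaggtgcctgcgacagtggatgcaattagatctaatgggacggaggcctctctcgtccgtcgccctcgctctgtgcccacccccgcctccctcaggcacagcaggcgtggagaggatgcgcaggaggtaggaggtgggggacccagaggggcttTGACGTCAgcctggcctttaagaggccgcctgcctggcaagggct

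The CRE match lies at bases -45 to -38 and the AP-1 match at -210 to -204, counted back from the start. Searched on both strands, TGACGTCA was in 1.55% of 32851 windows of this length and the AP-1 letters in 6.75%. These matches are descriptions of letters, and the arrays do not measure binding there.

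Values are intensities as deposited, which appear scaled within each array (array medians 0.899 to 0.941). The 30th percentile of each array, between 0.281 and 0.561, served as the detection limit. Gland labels were checked against markers: Of the 4 meibomian markers measured, Elovl3 and Elovl4, fatty acid elongases, and the lipid droplet protein Plin2 were highest in the meibomian gland (Elovl3 95.7 and 108, at most 0.689 elsewhere), while Mc5r was highest in the lacrimal gland (4.61 and 3.78, against 0.615 and 0.651). Sval2, a lacrimal secretory product, stood at 498 or above in both lacrimal groups and at 4.22 or below elsewhere. Of the 3 parotid markers measured, Amy1 and Car6 did not set that gland apart. Amy1, salivary amylase, read 289 and 272 there against 240 and 204 in the submandibular gland, and Car6 was highest in the lacrimal gland. Elane was highest in the parotid gland (0.596 and 0.636, at most 0.271 elsewhere), at levels not far above the detection limit. Of the sublingual markers, Agr2 and Spdef were measured, and neither is particular to that gland. Apart from sex and gland, pools differed along the first principal component of the deviations from the group means (39.1% of their variance over 7555 probes). In each gland with 3 pools per sex, 1 pool letter stood apart on it in both sexes. With 2 pools the deviations are equal and opposite, so neither can stand apart, and the pool on the same side as those letters was taken. These pools (submandibular B, sublingual A, parotid A, lacrimal B and meibomian A) are called array set 1 and all others set 2.

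Which glands carried the Th signal? The submandibular gland carried the highest, at a geometric mean of 203 in females and 145 in males, followed by the sublingual gland at 88.5 and 24.7. The parotid gland held 7.71 and 7.40, the lacrimal gland 1.13 and 1.39, and the meibomian gland 0.458 and 0.456. In bulk tissue, fewer cells of a type and less RNA per cell cannot be told apart.

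**Figure D1:**
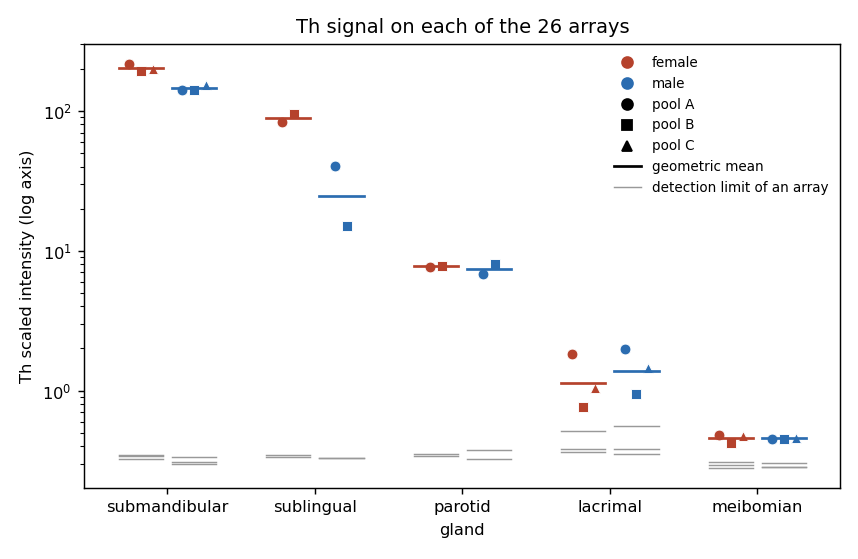
Scaled intensity of Th on a log axis for each of the 26 arrays, by gland, with females in red, males in blue and the pool given by the symbol. Coloured lines are geometric means and grey lines the detection limit of each array; the signal steps down from about 203 in female submandibular glands to about 0.456 in meibomian glands.

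In the female submandibular gland the 3 pools read 216, 193 and 200 (A, B and C), with a mean of 203 ± 11.6 (SD, n = 3). In males they read 141, 141 and 153, with a mean of 145 ± 7.29 (SD, n = 3). All 6 arrays lay at 418 to 624 times the detection limit and at 39.4% to 54.8% of the brightest spot of the same array, and no male pool reached the lowest female pool.

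Female sublingual pools read 82.8 (A) and 94.6 (B), a mean of 88.7 ± 8.36 (SD, n = 2). Male sublingual pools read 40.4 (A) and 15.1 (B), a mean of 27.7 ± 17.9 (SD, n = 2). The male pools of this gland were the least alike of any group, with an SD of 1.01 on the log2 scale against 0.0159 to 0.636 in the other groups. Both still lay above every parotid pool.

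The 4 parotid pools were close together: 7.60 and 7.82 in females and 6.86 and 7.996 in males (A and B). They lay at 21.0 to 22.4 times the detection limit, and the sexes overlapped.

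Lacrimal pools read 1.82, 0.759 and 1.05 in females and 1.98, 0.938 and 1.45 in males (A, B and C), 2.05 to 5.16 times the detection limit. Pool B, of array set 1, was the lowest in both sexes and pool A the highest. Meibomian pools lay between 0.423 and 0.481 in females and between 0.452 and 0.461 in males, 1.44 to 1.68 times the detection limit.

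Ordered by level, the groups ran female submandibular, male submandibular, female sublingual, male sublingual, both parotid groups, both lacrimal groups and both meibomian groups. Neighbours in this order did not overlap between glands or, in the submandibular and sublingual glands, between sexes. Male and female pools overlapped in the parotid, lacrimal and meibomian glands, where the order of the sexes is within their spread.

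With the sexes weighted equally, Th was 3.67-fold lower in the sublingual than in the submandibular gland (a log2 difference of -1.87 ± 0.25, standard error of the fit over all 26 arrays). In the parotid gland it was 22.7-fold lower than in the submandibular (-4.50 ± 0.25) and 6.19-fold lower than in the sublingual gland (sublingual minus parotid 2.63 ± 0.28). The mean of the 3 salivary glands lay 31.3-fold above the lacrimal gland (4.97 ± 0.19) and 86.0-fold above the meibomian gland (6.43 ± 0.19). Set 1 alone gave -1.51 and set 2 alone -2.21 for sublingual minus submandibular, and 5.60 and 4.61 for salivary minus lacrimal. The difference of parotid from submandibular was nearly the same in both sets (-4.52 and -4.47).

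How did Th differ between the sexes? It was lower in males in the submandibular gland (1.40-fold, male minus female -0.49 ± 0.32 on the log2 scale) and in the sublingual gland (3.59-fold, -1.84 ± 0.39). Elsewhere the difference was small, at -0.06 ± 0.39 in the parotid, 0.30 ± 0.32 in the lacrimal and -0.01 ± 0.32 in the meibomian gland. The standard errors rest on a spread shared by all glands, which for the submandibular gland is wider than that of its own pools. It is narrower than that of the male sublingual pools (log2 SD 1.01, against 0.136 in females). It is also narrower than that of the lacrimal pools (0.636 in females and 0.54 in males). The errors given for the sublingual and lacrimal glands therefore understate the spread of their own pools.

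**Figure D2:**
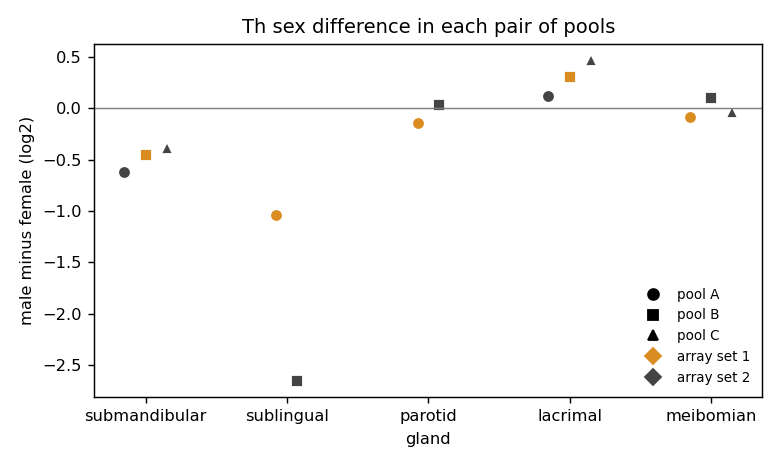
Male minus female Th on the log2 scale for each pair of pools that share a letter, by gland, with set 1 in orange and set 2 in grey. All 3 submandibular pairs lie between -0.62 and -0.39, the sublingual pairs at -1.04 and -2.65, and the other glands within 0.47 of 0.

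The submandibular pools of the sexes also differed in muscle signal. Of 10 skeletal muscle markers 7 were called higher in males there (median 2.77; 1.92% of all probes called higher), with summed levels of 22.8 to 28.2 in males and 3.09 to 4.97 in females, and the part of this in the Th difference was not tested. Pair by pair, the submandibular differences were -0.62 (A), -0.46 (B) and -0.39 (C), and the sublingual differences -1.04 (A) and -2.65 (B). Without male sublingual B the sublingual difference was -1.13, and without male sublingual A it was -2.55. In the lacrimal gland all 3 pairs were higher in males, by 0.12 (A), 0.31 (B) and 0.47 (C), although the groups as a whole overlapped. Parotid pairs gave -0.15 and 0.03, and meibomian pairs -0.09, 0.10 and -0.04.

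The submandibular difference changed with the normalization. With quantile normalization, female pools read 170, 182 and 162 and male pools 134, 177 and 160, so that the sexes overlapped and the difference was -0.13. Scaling to equal array medians left them apart, at 195 to 214 in females and 138 to 153 in males.

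The sublingual gland of the mouse lies against the submandibular gland, and the sublingual pools also held signal of submandibular duct products. Egf (epidermal growth factor) and Klk1b24 (a tissue kallikrein) are products of the granular ducts of the submandibular gland. In female sublingual glands Th stood at 43.6% of its submandibular level, Egf at 32.0% and Klk1b24 at 29.3%. In males Th stood at 17%, Egf at 24.1% and Klk1b24 at 17.8%.

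**Figure D3:**
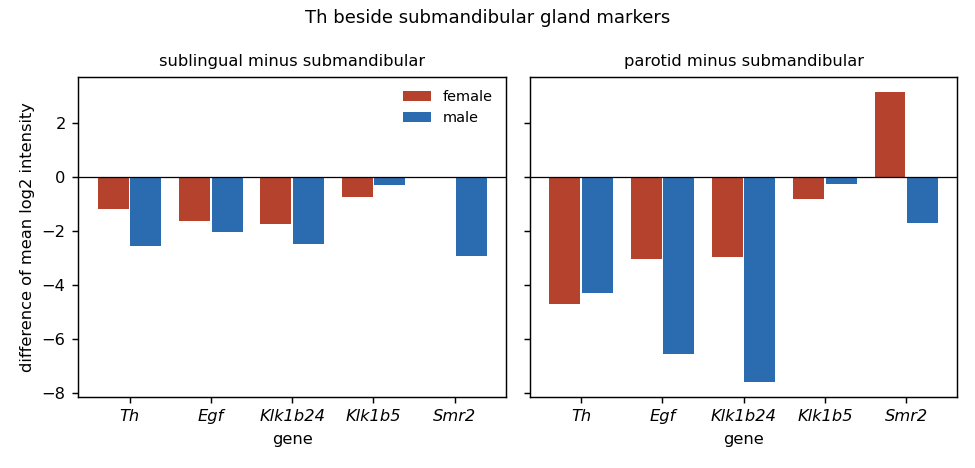
Difference of mean log2 intensity of Th and 4 submandibular gland markers, sublingual minus submandibular on the left and parotid minus submandibular on the right, with females in red and males in blue. In sublingual glands Th fell by 1.20 in females and 2.55 in males, beside 1.64 and 2.06 for Egf; Smr2 rests on 1 array per sex in the sublingual and parotid glands.

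Within the male sublingual pair the pool with more Th also had more of both duct products. Egf read 86.5 in male sublingual A and 28.6 in B, and Klk1b24 read 60.4 and 19.0, beside 40.4 and 15.1 for Th. In the female pair the order was opposite: Egf was 7.01 in A and 3.09 in B and Klk1b24 was 2.27 and 1.43, while Th was 82.8 and 94.6. Of the other markers measured, Klk1b5 gave less contrast, at 60% (females) and 81.2% (males) of its submandibular level, and is near the top of the scale. Smr2, measured in sublingual and parotid pool A alone, differed by sex. In the sublingual gland it stood at 99.2% (females) and 13.2% (males) of its submandibular level, and in the parotid gland at 881% and 30.2%. How much of the sublingual Th signal is submandibular tissue in the dissected gland was not tested.

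Between the sexes Th went the other way from these duct products. Egf was 14.5 in female and 207 in male submandibular glands and Klk1b24 was 6.14 and 190, so both were higher in the sex with less Th. In the parotid gland Th held 3.80% (females) and 5.11% (males) of its submandibular level, against 12.0% and 1.05% for Egf.

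Were the other genes of catecholamine synthesis and handling measured alongside? Of 11 genes listed, 5 had a probe, and the noradrenaline-forming Dbh and the vesicle transporters are not analysed here. Ddc, the decarboxylase that makes dopamine from L-DOPA, stayed below the detection limit on all 26 arrays. In the submandibular gland, where Th was brightest, Ddc read 0.0779 to 0.202. Pnmt, which makes adrenaline, was likewise below the limit on every array (0.0708 to 0.192 in the submandibular gland). Slc6a2, the noradrenaline reuptake transporter, was below the limit on every salivary array that measured it and above it on 1 lacrimal and 4 meibomian arrays.

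The remaining 2 genes of this list were above the limit throughout. Slc6a3, the dopamine transporter, read 0.712 to 2.02 over all glands and was not called in any of 5 gland comparisons (log2 differences from -0.46 to 0.09). A gland difference was called at an adjusted p under 0.05 in limma, adjusted by Benjamini-Hochberg over all probes tested, with a log2 difference of at least 1. Cyb561, the cytochrome that supplies electrons to dopamine beta-hydroxylase, was higher in the salivary glands than in the meibomian gland (3.38 against 0.599, a log2 difference of 2.50 ± 0.23, limma adjusted p = 7.27e-09). In that comparison 37.6% of all probes were called. Cyb561 did not pass between salivary glands or against the lacrimal gland (adjusted p = 0.285 to 0.962).

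**Figure D4:**
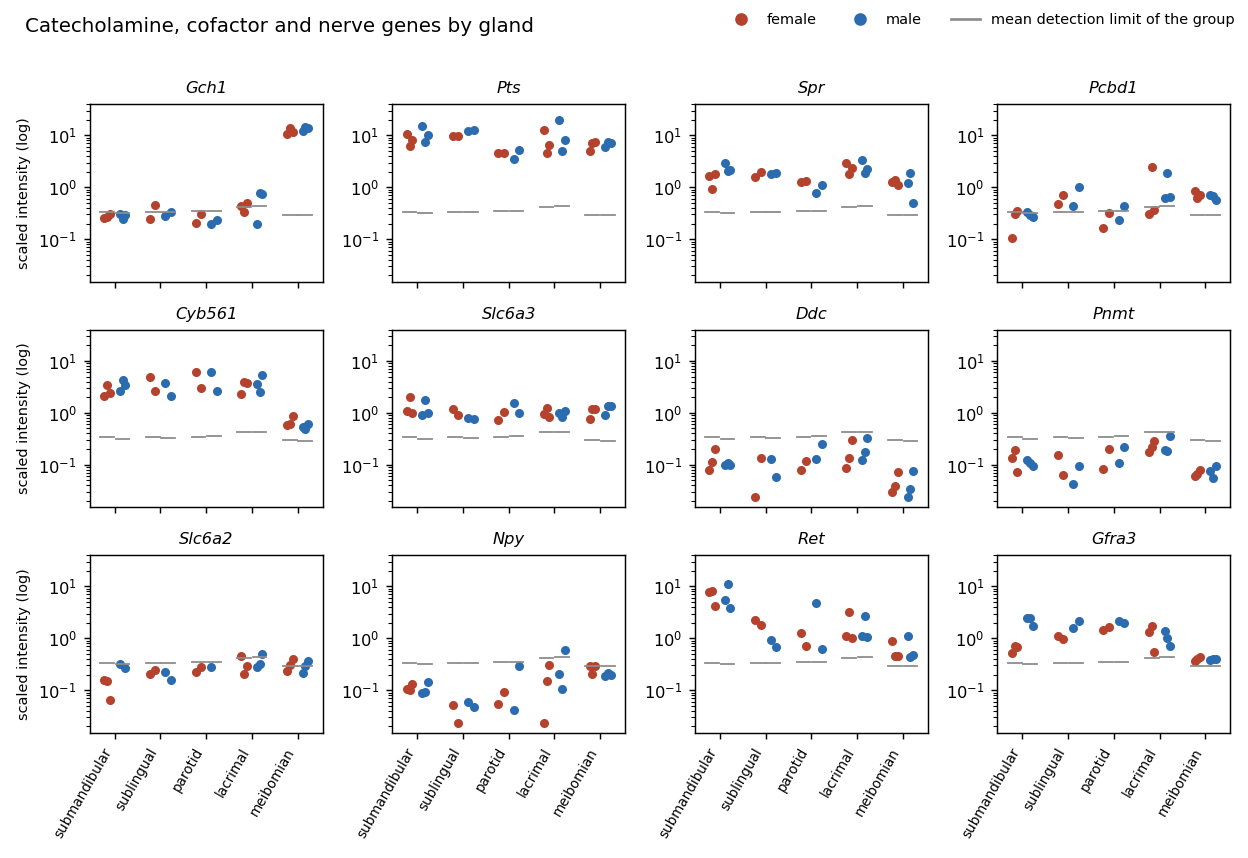
Scaled intensity on a log axis of 12 catecholamine, cofactor and nerve genes on each array, by gland, with females in red, males in blue and the mean detection limit of each group in grey. Ddc and Pnmt lie below the limit on every array, Gch1 lies at 10.7 to 14.4 in the meibomian gland alone, and Ret is highest in the submandibular gland.

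The first enzyme of the cofactor pathway was brightest where Th was lowest. Gch1, which catalyses the committed step of tetrahydrobiopterin synthesis, read 0.241 to 0.308 in the submandibular gland and lay below the limit on all 6 of those arrays. In the sublingual gland 2 of 4 arrays passed the limit (0.243 to 0.450) and in the parotid gland 0 of 4 (0.197 to 0.303). The meibomian gland read 10.7 to 14.4 on its 6 arrays. Gch1 was at least 38.7-fold lower in the salivary glands than in the meibomian gland (-5.55 ± 0.22, limma adjusted p = 2.22e-14). Gch1 was kept for testing only through the meibomian groups, where it was high, so this call is no separate support. The bound holds dim groups at their detection limit. Against the lacrimal gland (0.197 to 0.783) the difference was -0.70 ± 0.22 and was under the size asked for (limma adjusted p = 0.0138), but it was called without male lacrimal A (-1.02, limma adjusted p = 2.43e-05).

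Later enzymes of the cofactor pathway were above the limit in all 5 glands. Pts, the pyruvoyl synthase, read 6.16 to 15.2 in the submandibular, 9.66 to 12.9 in the sublingual and 3.50 to 5.26 in the parotid gland. It was lower in the parotid than in the submandibular gland (-1.07 ± 0.33, limma adjusted p = 0.0186; 16.8% of probes called) and than in the sublingual gland (sublingual minus parotid 1.32 ± 0.36, adjusted p = 0.0114; 13.7% called). The former was lost without female submandibular A (-0.97), male submandibular A (limma adjusted p = 0.0511), female parotid A (0.0550) or male parotid A (0.0941), and the latter without male parotid A (0.0558). In set 2 alone neither Pts difference passed (-1.14 and 1.20). With quantile normalization parotid minus submandibular was -0.99, under the size asked for. Spr, the reductase that completes the cofactor, read 0.504 to 3.36 over all arrays and passed in no comparison at the size asked for.

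Pcbd1 and Pcbd2 recycle the spent cofactor. Pcbd1 was lower in the salivary than in the lacrimal glands (at least 2.05-fold, -1.14 ± 0.37, limma adjusted p = 0.0167; 20.7% of probes called). This call was lost without female lacrimal B (-0.66, adjusted p = 0.0806) or male lacrimal B (-0.87, adjusted p = 0.0653), and set 2 alone gave -0.12. It was also lost with quantile normalization (-0.81, limma adjusted p = 0.163) and with array weights (-0.99, adjusted p = 0.0587). In the sublingual gland Pcbd1 read 0.441 to 1.02, against 0.104 to 0.342 in the submandibular gland, and the difference of 1.29 did not pass (limma adjusted p = 0.0871). It passed with the pool letter as a block (adjusted p = 0.00394), with array weights (0.0273), with only these glands' arrays (0.0457), without female lacrimal B (0.0199) and in set 2 alone (0.0162). Against the parotid gland (1.21, limma adjusted p = 0.129) it passed with the block (0.00864) and without female lacrimal B (0.0410). Pcbd2 read 4.86 to 17.6 and was called in no gland comparison. Tph1, a related hydroxylase that acts on tryptophan, passed the limit on 6 of 26 arrays and on 0 of the 6 submandibular ones.

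Did nerve markers rise and fall with Th? Of 28 neuron and sympathetic genes listed, 22 had a probe and 9 passed the filter, which asked for every array of at least 1 group to reach the detection limit. The 7 probes for Nefh, Nefm, Chgb, Syp, Elavl4, Prph and Isl1 were below the limit on every array that measured them. Npy, a peptide of sympathetic neurons, read 0.0872 to 0.141 in the submandibular gland and passed the limit on 0 of 14 salivary arrays. Phox2a, a transcription factor of noradrenergic neurons, was above the limit on all arrays (0.725 to 3.24 in the submandibular and 1.08 to 4.68 in the lacrimal gland). Summed over the 22 probes, the level was 17.8 to 28.6 on submandibular, 7.54 to 14.0 on sublingual, 12.6 to 17.8 on parotid, 14.5 to 29.7 on lacrimal and 10.0 to 11.7 on meibomian arrays. The submandibular and lacrimal ranges overlapped, while Th differed between those glands on every array. The sums are led by single genes, Ret in the submandibular and Ina in the lacrimal gland. Ret stood at 6.49 and 6.11 in female and male submandibular glands, against 1.52 and 1.47 in lacrimal glands. Ina went the other way, at 3.98 and 3.13 against 6.22 and 6.38, so similar sums do not mean similar members. The part of nerve fibres in the Th signal was not tested, and transcripts kept in cell bodies outside the gland would not be seen here.

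Of the neuron list, 2 of 9 members were lower in the sublingual than in the submandibular gland, where 10.4% of all probes were called and 4.64% were lower (list median -0.88, median of all probes -0.06). Ret, the receptor for glial-derived growth factors, went in the direction of Th. It read 3.82 to 11.1 on submandibular, 0.681 to 2.23 on sublingual and 0.622 to 4.72 on parotid arrays. The difference was 4.98-fold against the sublingual (-2.32 ± 0.49, limma adjusted p = 0.00229) and 4.95-fold against the parotid gland (-2.31 ± 0.49, adjusted p = 0.00129). Male parotid A, at 4.72, overlapped the submandibular range. Gata3, a transcription factor of sympathetic neurons and of other cells, went against Th, being higher in the parotid than in the submandibular gland (0.984 against 0.447, 1.14 ± 0.29, limma adjusted p = 0.00554) and lower in the sublingual than in the parotid gland (-1.13 ± 0.32, adjusted p = 0.0153). The latter was lost without female sublingual A, male sublingual A or male parotid A (limma adjusted p = 0.0793, 0.0780 and 0.0522), and both in set 2 alone (0.0707 and 0.350). Ina, a neuronal filament protein, was lower in the salivary than in the lacrimal glands (2.53 against 6.30, -1.31 ± 0.51, limma adjusted p = 0.0403). It did not pass with the missing code at the floor (limma adjusted p = 0.0509), array weights (0.0839) or only these glands' arrays (0.0590). Set 2 alone gave -0.87. That call was lost without any one of female or male submandibular B, sublingual A, parotid A or lacrimal A, or male lacrimal C (limma adjusted p = 0.0508 to 0.144). Syt1, a synaptic vesicle calcium sensor, was at least 1.54-fold lower in the sublingual than in the submandibular gland (-1.24 ± 0.28, limma adjusted p = 0.00310), though not in set 2 alone (adjusted p = 0.134).

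Among neurotrophic factors and receptors 5 of 9 probes passed the filter. Ntrk2, the receptor for brain-derived neurotrophic factor, ran against Th, with 0.817 to 2.08 on submandibular, 5.94 to 13.0 on sublingual and 5.83 to 15.5 on parotid arrays. It was 6.75-fold higher in the sublingual (2.75 ± 0.26, limma adjusted p = 4.95e-07) and 7.81-fold higher in the parotid than in the submandibular gland (2.97 ± 0.26, adjusted p = 1.69e-08). Gdnf was lower in the salivary glands than in the lacrimal gland (2.16 against 6.48, -1.59 ± 0.16, limma adjusted p = 5.89e-08) and higher than in the meibomian gland (1.43 ± 0.16, adjusted p = 1.07e-07). Nrtn, its relative, was higher in salivary than in lacrimal glands (6.56 against 2.76, 1.25 ± 0.20, limma adjusted p = 2.81e-05).

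Schwann cell markers were measured by 4 probes. Gfap, a filament protein of glia, stood at 51.9 to 102 on the sublingual arrays, against 1.07 to 14.0 on the submandibular and 1.04 to 1.84 on the parotid arrays. Female submandibular C read 14.0 and the other 5 submandibular arrays at most 1.58. Gfap was 32.9-fold higher in the sublingual than in the submandibular gland (5.04 ± 0.60, limma adjusted p = 5.61e-06). It was the only 1 of the 4 called there (list median 0.23, median of all probes -0.06, 5.71% of all probes called higher). Of the rest, Sox10 was lower and Pmp22 and S100b were higher, none of them called. Sox10, a transcription factor of Schwann cells that salivary epithelium also expresses, was 6.05-fold higher in the salivary glands than in the lacrimal gland (2.60 ± 0.12, adjusted p = 4.18e-13). Against the meibomian gland it was 18.1-fold higher (4.18 ± 0.12, adjusted p = 1.55e-16), and Gfap was higher too (3.09 ± 0.45, adjusted p = 5.45e-06). The other Schwann list members went the other way there: Pmp22, a myelin protein, was lower in the salivary glands (11.9 against 24.5, -1.05 ± 0.20, limma adjusted p = 9.74e-05) and so was S100b (at least 2.01-fold, -1.33 ± 0.25, adjusted p = 0.000114). S100b passed the filter only through the meibomian groups, where it was high, so its call is no separate support. Without male sublingual A, female parotid A or female meibomian A the difference of Pmp22 was under the size asked for (-0.996 to -0.958), as it was with array weights (-0.98). In set 2 alone the differences of Pmp22 and S100b were both under that size (-0.72 and -0.89). Unlike Th, Sox10 was lower in the sublingual than in the parotid gland (-1.30 ± 0.17, limma adjusted p = 1.04e-05).

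Receptors for the transmitters were measured in part. Of 5 adrenergic and dopamine receptor probes 4 passed the filter. Adra1b, an alpha-1 adrenergic receptor, was lower in the salivary than in the lacrimal glands (1.05 against 2.31, -1.14 ± 0.21, adjusted p = 0.000188). Its difference fell under the size asked for without female lacrimal B (-0.86) or male lacrimal B (-0.997), and in set 2 alone (-0.77). Drd3, a dopamine receptor, read 0.476 to 0.952 in female and 0.145 to 0.181 in male submandibular glands, the latter all below the limit. Drd3 passed the filter only through the female submandibular group, where it was high. Of 9 cholinergic and peptide probes 4 passed, and Chrm3, a secretory muscarinic receptor, reached the limit on only 6 of 26 arrays. Against the meibomian gland, where both were below the limit, Chrm3 (2.47 ± 0.29, limma adjusted p = 2.87e-07) and Drd3 (2.01 ± 0.33, adjusted p = 2.23e-05) were called higher in the salivary glands, at least 1.01-fold and 1.28-fold. The Drd3 call rests in part on the group that brought it past the filter.

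Over the 7 nerve and catecholamine lists together, 60 of 103 genes had a probe and 33 passed the filter. In the sublingual against the submandibular gland 2 were higher and 2 lower, beside 5.71% and 4.64% of all probes. In the parotid against the submandibular gland 2 were higher and 2 lower (9.24% and 7.54% of all probes). In the sublingual against the parotid gland 2 were higher and 3 lower (5.41% and 8.33%). Against the lacrimal gland 3 were higher and 6 lower in the salivary glands, beside 9.11% and 11.6% of all probes. Against the meibomian gland 10 were higher and 4 lower (19.7% and 17.9%). Of these, Gch1, S100b and Drd3 passed the filter only through groups where they were high. Markers of other tissues moved between the glands as well. Of 10 skeletal muscle markers 10 were higher in the parotid than in the submandibular gland (median 4.04) and 10 were lower in the salivary than in the meibomian glands (median -3.93). Their summed level was 3.09 to 28.2 on submandibular, 2.07 to 5.69 on sublingual, 68.8 to 333 on parotid, 3.19 to 5.98 on lacrimal and 252 to 458 on meibomian arrays. Of 10 T and B cell markers 9 were higher and 1 lower in the sublingual than in the submandibular gland, and the sums of 11 probes were 37.0 to 67.3 and 13.1 to 37.5. The part of these tissues in the differences of Th and of the list members was not tested. The nerve list medians were -0.16 against the lacrimal gland for list and all probes alike, and 0.50 against 0.05 for the meibomian comparison.

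Between the sexes few of these genes were called, at an adjusted p under 0.05. In the submandibular gland 1 of 33 passed, and it was higher in males, beside 2.59% of all probes (1.92% higher, 0.670% lower). That gene was Gfra3, the receptor subunit for artemin, a factor for sympathetic neurons, at 0.518 to 0.710 in females and 1.72 to 2.51 in males (1.79 ± 0.32, limma adjusted p = 0.00201). Every male pool lay above every female pool, the opposite of Th, and in set 2 alone the call was lost (1.78, adjusted p = 0.120). With the pool letter as a block 4 of 33 passed, beside 590 of the 8211 probes kept. Besides Gfra3 these were Drd3 (-1.96 ± 0.37, limma adjusted p = 0.00789), Sox10 (-0.72 ± 0.15, adjusted p = 0.0128) and Gata3 (-0.90 ± 0.23, adjusted p = 0.0356), lower in males, as Th was. For Drd3 the male pools were all below the limit, so the difference is at least 2.08-fold. It passed the filter only through the female group in which it was high, so its call is no separate support. Drd3 and Sox10 did not overlap between the sexes, with Sox10 at 8.98 to 9.95 in females and 5.37 to 6.16 in males.

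In the lacrimal gland 1 of 33 passed (5.41% of all probes, 2.90% higher and 2.51% lower in males), Sox10 at 1.66 in females and 1.003 in males (-0.73 ± 0.20, limma adjusted p = 0.0316). With the block 5 of 33 passed there, beside 1109 of the 8211 probes kept. The Sox10 call was lost without female lacrimal A, B or C or male lacrimal B (limma adjusted p = 0.0609 to 0.109). It was also lost with array weights (adjusted p = 0.358) or only lacrimal arrays (0.626), and set 2 alone gave -0.625. In limma 0 of 33 passed in the sublingual, parotid and meibomian glands, where 0.207%, 0.0244% and 0.0365% of all probes were called (0.0853%, 0.0244% and 0.0365% as higher in males). Before adjustment 1, 0 and 0 had a limma p under 0.05 in these glands, beside 239, 133 and 19 of all probes, and with the block 0 passed in each.

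Which other genes had a pattern like that of Th? The 8 genes with the highest Pearson correlation over the 26 arrays, of 6681 probes with 1 symbol and no missing cell, were Fgf5 (0.97), Tas2r119 (0.97), Ly6c1 (0.96), B3gat3 (0.96), Stap1 (0.95), Eya2 (0.94), Dmrt2 (0.94) and Atp2a3 (0.94). These are descriptions without a test, since the arrays share gland, pool and set. None of the 8 belongs to the catecholamine or nerve lists. Over the 10 group means 5 of the 8 stayed among the closest 8, and by Spearman correlation 2 did.

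**Figure D5:**
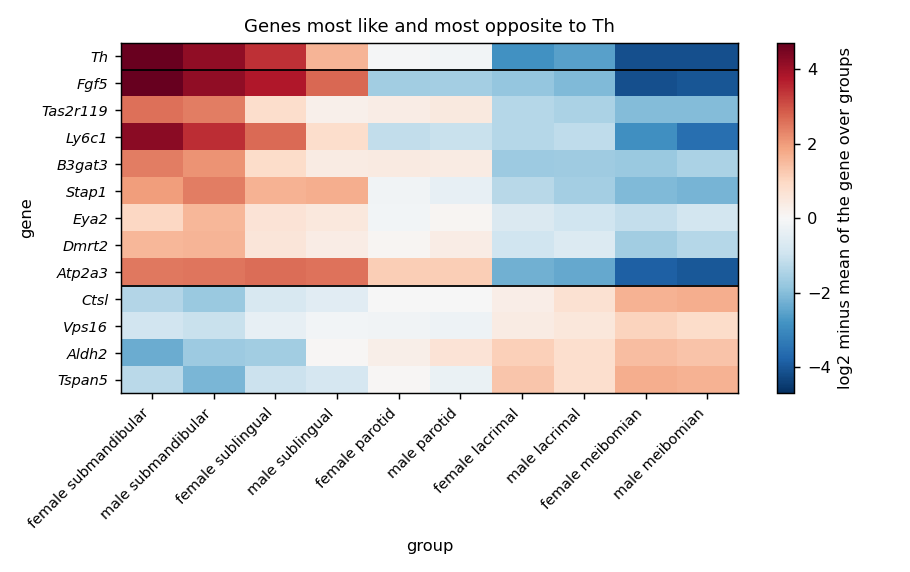
Mean log2 intensity of Th, the 8 genes most like it and the 4 most opposite to it in each group of sex and gland, each minus its own mean over the 10 groups, from blue (low) to red (high). The male minus female difference in the sublingual gland is -1.07 for Fgf5 and -1.86 for Ly6c1, as against 0.07 for Stap1 and -0.06 for Atp2a3.

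Fgf5, a fibroblast growth factor known from the hair cycle, was closest. It read 345 in female and 236 in male submandibular glands, 178 and 84.9 in sublingual, 4.20 and 4.36 in parotid, 3.71 and 3.10 in lacrimal and 0.742 and 0.815 in meibomian glands. Like Th it was lower in males in the first pair of glands (male minus female -0.55 and -1.07), but it dropped further to the parotid gland. Ly6c1, a surface protein of the Ly6 family, read 17.3 and 10.2 in submandibular, 5.83 and 1.60 in sublingual and at most 0.438 in the other glands. Its sublingual difference of -1.86 was close in size to that of Th (-1.84).

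The other like genes had sublingual sex differences of -0.60 to 0.07. Tas2r119 encodes a bitter taste receptor and read 33.6 and 29.7 in female and male submandibular glands, 9.79 and 6.47 in sublingual and 7.02 and 7.70 in parotid glands. B3gat3, which builds the linker of proteoglycan chains, read 34.8 and 28.7 in submandibular and at most 2.36 in lacrimal and meibomian glands. Stap1, an adaptor protein, and Eya2, a transcriptional coactivator, had more signal in males in the submandibular gland (male minus female 0.46 and 0.60). Within groups, the deviations of Th correlated with those of Ly6c1 at 0.67, Eya2 at 0.64, Tas2r119 at 0.59 and Fgf5 at 0.58, but with those of Stap1 at -0.28.

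Genes that ran opposite to Th were Ctsl, Vps16, Aldh2 and Tspan5 (r from -0.94 to -0.93 over the 26 arrays). Ctsl, a lysosomal protease, rose from 10.7 and 8.30 in female and male submandibular glands to 87.4 and 91.1 in meibomian glands. Aldh2, a mitochondrial aldehyde dehydrogenase, read 2.25 and 3.48 in submandibular, 3.63 and 11.9 in sublingual and 31.0 and 29.3 in meibomian glands. Its male sublingual level stood above the female one, the reverse of Th.

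The same motifs were counted in the like genes. Of the 8, 6 had an upstream window in the RefSeq table, and 0 of 6 held TGACGTCA (1.55% of all windows) and 0 of 6 the AP-1 letters (6.75%), counts too small to read against those shares. GGGCGG was in 2 of 6 and in 32.7% of all windows, and it occurred once in Th, at bases -220 to -215. TATAAA was in 2 of 6 and in 12.4% of all windows, and 0 times in Th. The absence of a match says only that these letters are not in this window.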

How the data were processed

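Each of 26 arrays has 1 column of linear intensity in the authors' deposited table (10500 probes), and its making, platform and scanner are not stated in the labels. Similar array medians and small negative values are those of scaled, background-subtracted data. Cells at exactly -1 (2241) were read as missing. Other values under 0.0234, the 1st percentile of positive values, were raised to it before log2. A probe was kept if all measured arrays of at least 1 group reached the 30th percentile of the array (8211 kept). A linear model of the 10 groups was fitted to all arrays (limma 3.58.1 under R 4.3.3; 16 residual and 4.114 prior degrees of freedom), after a test on simulated data. P-values were adjusted by Benjamini-Hochberg over all probes kept. Errors after ± are standard errors unless named SD.

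Symbols came from the probe annotation, 8975 of 8983 matched by Entrez identifier to RefSeq (GRCm38.p6). What each probe reads was not tested. Named genes are all measured members of both enzyme lists, up to 4 called members of the other nerve lists per comparison by size, Npy and Phox2a, and the 8 genes most like and 4 most opposite to Th. Nrtn, Adra1b, Pmp22, S100b, the 7 dim neuron genes and members called only with the block were named after their values were seen. The members and lists were chosen with earlier results of these data known.

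Same-lettered male and female pools deviated together: in the 9 pairs of the glands with 3 pools, correlations were 0.441 to 0.816. Pools of different letters in these glands reached 0.491 at most, so the ranges overlap. The letter was therefore treated as pairing pools, and fits with it as a block stand beside results they change. Alternatives changed the floor, the missing code, normalization, filter, array weights, arrays fitted and single pools. The split into array sets was added after seeing the data.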

Additional observations from a re-analysis of the deposited data

Results flagged for a closer look

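The pairs of male and female pools pointed in opposite directions in different glands. All 3 submandibular and both sublingual pairs of pools were lower in males, and all 3 lacrimal pairs were higher, although the lacrimal groups overlapped and their difference was 0.011 without female lacrimal B. The male minus female difference was lower by 0.785 on the log2 scale in the submandibular than in the lacrimal gland (a value of -0.785), and the sublingual against the lacrimal difference was -2.141. This difference was not tested, since Th was chosen from these values. With quantile normalization the submandibular sex difference was -0.131.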

How the results depend on the processing

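The Th differences kept their sign under the alternatives run, except those near 0: the meibomian sex difference (-0.008) was 0.004 with quantile normalization, 0.007 with array weights, 0.033 in set 2 and up to 0.027 without female meibomian A or C, and the parotid one (-0.058) was 0.032 in set 2 and 0.053 without male parotid A. Quantile normalization moved Th to 171 and 156.2 in female and male submandibular glands, 108 in female sublingual, 8.169 in female parotid and 0.4937 and 0.4952 in female and male meibomian glands. The submandibular sex difference became -0.131 and parotid minus submandibular -4.357. Equal array medians gave 0.4471 in male meibomian glands. Set 2 alone, chosen after seeing the data, gave a sublingual sex difference of -2.65; set 1 alone gave -1.036 there, -0.09 in the meibomian gland and 5.602 for salivary minus lacrimal. Leaving out single pools gave -2.554 to -1.132 for the sublingual sex difference and 0.011 to 0.64 for the lacrimal one. The cause of these shifts was not tested.

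With the pool letter as a replicate block, sex calls over all probes changed from 213 to 590 in the submandibular, 17 to 36 in the sublingual, 2 to 1 in the parotid and to 1109 in the lacrimal gland. Called list members became 4 in the submandibular and 5 in the lacrimal gland, from 1 each. Array weights gave 355, 195 and 5 probes in the submandibular, lacrimal and meibomian glands (3 in the last without weights). With only the arrays of the glands compared, the sublingual and parotid glands had 0 and the lacrimal gland 93. Set 2 alone gave 110, 3 and 34 in the submandibular, sublingual and parotid glands. Leaving out single pools gave 141 to 274 in the submandibular, 13 to 29 in the sublingual, 2 to 14 in the parotid, 333 to 485 in the lacrimal and 2 to 4 in the meibomian gland.

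Called members in the submandibular sex comparison numbered 2 with a higher floor, the missing code at the floor, quantile normalization, the 50th percentile filter, array weights or only that gland's arrays, 0 in set 2, and 1 to 3 without single pools. In the lacrimal gland they numbered 2 with quantile normalization, 0 with array weights or only its own arrays, and 0 to 2 without single pools. Without a filter the 60 members with a probe entered in place of 33, and dim probes entered the background as well. Members called were then 8 for parotid minus submandibular, 21 for salivary minus lacrimal (2710 probes, from 1697) and 26 for salivary minus meibomian. No count over all probes stands beside the first and last, so they are not read as a result about the members. In set 2, 2 were called for sublingual minus parotid. Of the 8 genes most like Th, 5 stayed over group means, 2 by Spearman correlation and 6 to 8 without single pools. Arrays limit precision by their number, and Th near the detection limit in the meibomian gland has little room to show a difference.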
